A study of Rattus norvegicus with 15 samples.

Results

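miR-592 is 1 of 600 mature miRNA names counted in the kidney cortex of PCK rats, and it was taken by its name, rno-miR-592, from the table of raw read counts. It was singled out because its level was much lower on a salt-deficient diet than on the other diets, so its levels across diets are given below as a description, and only the comparison of the other diets with each other carries a test. PCK rats (PCK/CrljCrlPkhd1pck/CRL) carry a mutation of Pkhd1, the rat counterpart of the gene mutated in human recessive polycystic kidney disease. The rats were bought at 4 weeks of age and ate Dyets chow with 0.01%, 0.4% or 4% NaCl from 6 weeks of age for 8 weeks, and the labels name no other treatment. Every group carries the Pkhd1 mutation, so that differences below are between diets in PCK kidneys and none is against a healthy kidney. Small RNA was sequenced from flash-frozen cortex in 5 libraries per diet, called libraries 1 to 5 of a diet. According to the protocol, tissue of 2 to 3 rats was pooled and each diet had 2 pools, yet 5 samples are listed for each, so p-values measure the spread between these libraries, which may be technical.

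A miRNA is cut from a hairpin RNA and guides Argonaute proteins to mRNAs, mainly by pairing of its seed, bases 2 to 8, with the target. In human and mouse miR-592 is made from within GRM8 (Grm8), the gene of a metabotropic glutamate receptor, and it is best known from brain. In mouse neurons it is known to repress Ngfr, the p75 neurotrophin receptor. In the RefSeq annotation of the rat build GRCr8, the Mir592 hairpin is at chr4:57470748-57470843 on the minus strand, inside the span of Grm8 and on the same strand. The gene table used here gives no exons, and Grm8 mRNA was not measured.

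The sequences from RefSeq on GRCr8 are shown because names with near-identical sequences could share reads. In the first line, the mature miRNA of 23 bases (chr4:57470804-57470826, minus strand), the seed is in capitals, and in the second, the hairpin of 96 bases, the mature miRNA is in capitals.
miR-592: aUUGUGUCaauaugcgaugaugu
Mir592 hairpin: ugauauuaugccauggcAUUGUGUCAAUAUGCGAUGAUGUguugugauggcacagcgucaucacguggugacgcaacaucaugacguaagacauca
The mature miRNA fills bases 18 to 40 of the hairpin, on its 5′ arm. It is the only mature name that the annotation gives to this hairpin, and no other name in the count table carries the number of this miRNA. None of the other rat mature sequences, 693 names in all with miR-592, has the same seed. The closest counted rat miRNA, miR-181c-5p, differs from it by 9 single-base edits, and the reverse complements of counted miRNAs differ by at least 8. These distances cover the 404 rat sequences that matched a counted name, and names from other species were not compared.

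The libraries held 5767723 to 7826411 counted reads on 0.01%, 4789739 to 7384275 on 0.4% and 4167498 to 5420830 on 4% NaCl. Kidney markers were abundant, as 7 miRNAs best known from tubules, such as miR-192-5p and miR-10a-5p, summed to between 270800 and 655700 in counts-per-million units (CPM, here relative to the library size scaled by TMM, the trimmed mean of M values). miR-10a-5p alone held 18.45% to 40.27% of the counted reads of a library and so weighs heavily in this sum. The liver marker miR-122-5p, the neuronal miR-124-3p and miR-137-3p and the muscle miR-206-3p are not among the 600 names counted. The other striated muscle markers, miR-1-3p, miR-133a-3p and miR-208b-3p, were counted and summed to 38.9 to 61.4 scaled CPM over the libraries. The summed neuronal markers, of which miR-9a-5p was the largest, were 463 to 711 scaled CPM on 0.01%, 294 to 421 on 0.4% and 300.2 to 449.9 on 4% NaCl. The 3 markers of smooth muscle and vessels summed to 43450 to 74990 scaled CPM on 0.01%, 22030 to 38840 on 0.4% and 26170 to 31810 on 4% NaCl. Both sums were highest on the diet on which miR-592 was lowest, and their part in the result was not tested. Of the 4 tested neuronal markers miR-9a-5p was called higher on 0.01% than on either other diet, as was miR-143-3p of the 3 vessel markers, where 7.71% of all names were called higher against 0.4% and 7.32% against 4% NaCl. The other 3 neuronal markers had log2 fold changes of -0.76 (miR-129-5p), -0.36 (miR-219a-5p) and -0.043 (miR-128-3p) against 0.4% NaCl and did not pass. Those of the 3 vessel markers ran from 0.010 to 0.83 against 0.4% and from 0.0040 to 1.01 against 4% NaCl, and 2 did not pass in either contrast. The summed markers of tubules, leukocytes, red cells, endocrine cells and striated muscle overlapped between all diets. Of the 7 tubule markers 1 was called against 0.4% NaCl (miR-194-5p, lower) and 3 against 4% (miR-194-5p lower, miR-10a-5p and miR-30a-5p higher), which is 14.3% and 42.9% where 16.8% and 20.4% of all names were called. Of the 6 leukocyte markers miR-150-5p was called lower against 4% NaCl, and none was called against 0.4%. In whole cortex, fewer cells that hold miR-592 and less miR-592 per cell cannot be told apart.

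miR-592 was nearly absent from the salt-deficient libraries and scarce but plainly counted in the others. Libraries 1 to 5 of the 0.01% diet held 7, 5, 2, 5 and 4 reads of miR-592. Those of the 0.4% diet held 29, 60, 43, 12 and 40 reads. Those of the 4% diet held 42, 34, 34, 42 and 54 reads. No library was at 0, every 0.01% library held fewer reads than every other library, and the nearest to them was library 4 of the 0.4% diet. Its 12 reads (exact 95% Poisson interval 6.20 to 21.0, counting error only) and the 7 reads of library 1 of the 0.01% diet (2.81 to 14.4) have overlapping intervals.

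Depth in counted reads ran opposite to these reads, since the deepest group held the fewest. At the summed rate of the 0.4% libraries by TMM-scaled depth, the 0.01% libraries would have held 32.4 to 40.0 reads each. That is 183.6 in all, so by scaled depth the 0.01% and 0.4% groups were about equal. In reads summed over 5 libraries, 23 on 0.01% stood against 184 on 0.4% and 206 on 4% NaCl. Relative to scaled depth, the summed rate on 0.01% was 0.125 of that on 0.4% (exact 95% interval 0.0775 to 0.194) and 0.0993 of that on 4% (0.0616 to 0.153). These intervals, too, cover counting error only.

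On the scale of scaled CPM, 1 read was worth 0.133 to 0.217 CPM, depending on the library. The levels of libraries 1 to 5 were 1.34, 0.861, 0.333, 0.774 and 0.654 scaled CPM on 0.01% NaCl. They were 5.25, 8.01, 8.63, 2.17 and 6.50 on 0.4% NaCl. They were 7.35, 5.76, 6.20, 9.14 and 11.7 on 4% NaCl. The levels thus did not overlap between 0.01% NaCl and either other diet, while the 0.4% and 4% libraries were interleaved. Means were 0.792 ± 0.366 scaled CPM (SD, n = 5) on 0.01%, 6.11 ± 2.57 on 0.4% and 8.02 ± 2.42 on 4% NaCl. In order of mean level 0.01% came first, then 0.4%, then 4%, and 0.4% and 4% did not differ beyond their spread. Among all 600 names, miR-592 held abundance ranks 489 to 577 in the 0.01% libraries, 342 to 480 in the 0.4% libraries and 324 to 374 in the 4% libraries.

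**Figure D1:**
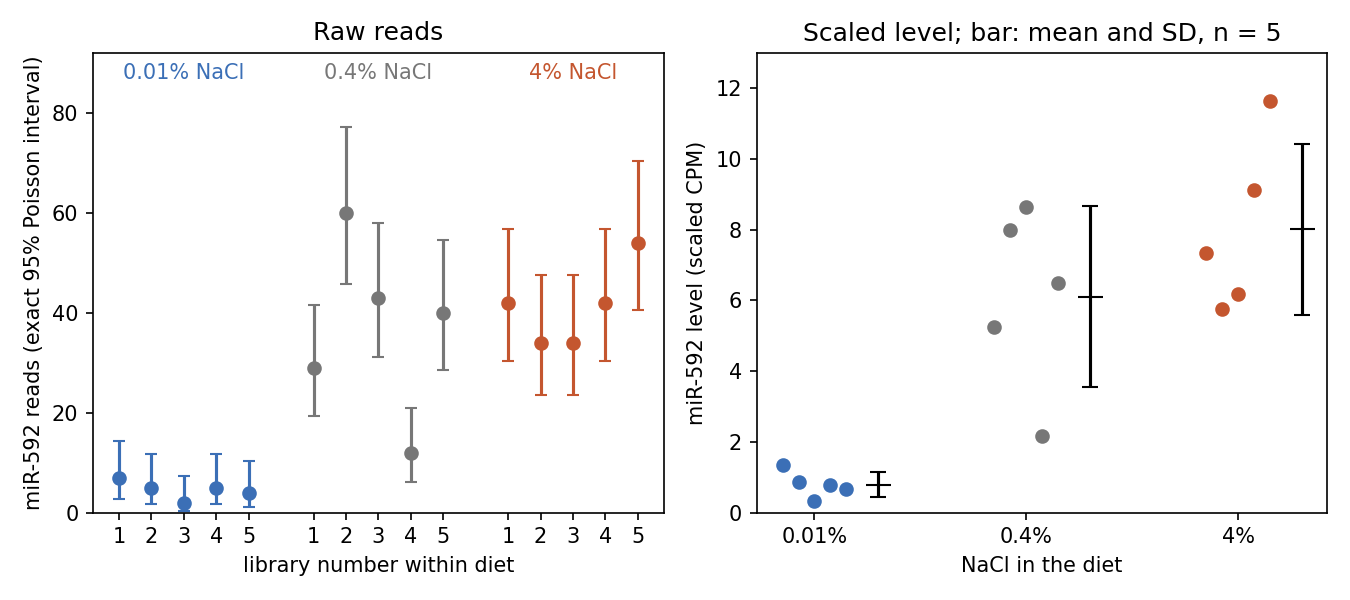
Left, raw reads of miR-592 in each of the 15 libraries with exact 95% Poisson intervals. Right, the level in scaled CPM for each library by NaCl content of the diet, with mean and SD (n = 5) beside the points. The 0.01% libraries lie between 0.333 and 1.34 scaled CPM, below all others, and library 4 of the 0.4% diet, at 2.17, is the nearest to them.

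Libraries of 1 diet differed by more than counting error on 0.4% and 4% NaCl and by no more than it on 0.01%. The variance of the reads over that expected from counting alone was 0.956 on 0.01%, 6.00 on 0.4% and 3.74 on 4% NaCl, where 1 is counting error only. The coefficient of variation of the level was 46.1%, 42.0% and 30.1% on the 3 diets in that order, against 46.6%, 16.5% and 15.6% from the mean number of reads. Spread between animals or pools could therefore not be measured on 0.01% NaCl at this depth, since counting error is as large as the whole spread.

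Reading 0.01% against 0.4% NaCl, the edgeR fit gave miR-592 a log2 fold change of -2.93 ± 0.40 (SE), a 7.71-fold difference between the means. Against 4% NaCl the fit gave -3.32 ± 0.40, and the means differed 10.1-fold. Both contrasts use the same 0.01% libraries, and miR-592 was chosen from them, so no test is given. Of all 519 names that passed the filter on low counts, 47 (9.06%) were lower on 0.01% than on 0.4% NaCl at a Benjamini-Hochberg adjusted p under 0.05, and 68 (13.1%) were lower than on 4%. The 5 low-salt libraries all lay below the 5 of the other diet for 39 names (7.51%) against 0.4% and for 50 (9.63%) against 4% NaCl. The median log2 fold change of all 519 names was -0.0027 and -0.0099. More negative fitted values than that of miR-592 belonged to 2 names, hco-miR-5941 and miR-219a-2-3p, which are named after their values were seen. The 0.01% libraries together held 1 read of miR-219a-2-3p, which had levels from 0 to 5.79 scaled CPM in those of the 0.4% diet. For hco-miR-5941 they held 6 reads, and its levels on 0.4% NaCl were 0 to 7.34, so both were at 0 in at least 1 library of the 0.4% diet, where miR-592 was always counted.

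The authors' deposited table gives the change between 0.01% and 0.4% NaCl with the opposite sign, as the second diet over the first. Turned to 0.01% over 0.4%, the authors' deposited table has a log2 fold change of -2.94 from DESeq, -1.86 from DESeq2 and -2.90 from edgeR. For 0.01% over 4% NaCl, the authors' deposited table has -3.30, -2.35 and -3.31 from the same tools in that order. The DESeq sheet of this comparison has column headers that name 0.4% libraries, while its reads of miR-592 are those of the 4% libraries. The DESeq2 values are the smallest in size in both comparisons. A DESeq2 fit made here from the raw counts gave -2.96 against 0.4% and -3.32 against 4% NaCl, near the values of the other tools.

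Between 4% and 0.4% NaCl no difference in miR-592 was detected. The log2 fold change of 4% over 0.4% was 0.38 ± 0.33 (SE, 95% interval -0.31 to 1.08), which did not pass the quasi-likelihood test of edgeR (adjusted p = 0.967 over all 519 names). This contrast was not used to choose miR-592, but both its groups were, each against 0.01% NaCl. In 8 of 25 pairs of a 4% and a 0.4% library the 4% library was the lower. An exact two-sided permutation test on scaled CPM, with all 252 assignments of the libraries, gave p = 0.278, where the smallest possible is 0.00794. Reads alone gave a ratio of 1.26 (exact 95% interval 1.03 to 1.55), which leaves out the spread between libraries that exceeds counting error on both diets. In this contrast edgeR called 0 of 519 names (0%), as did DESeq2 and limma-voom, and 27 (5.2%) had an unadjusted p under 0.05. The 4% libraries lay all below the 0.4% libraries for 0.193% of names and all on either side for 0.771%, and miR-592 was not among these. Without library 4 of the 0.4% diet the mean on that diet was 7.05 scaled CPM and the log2 fold change was 0.18, and without library 3 it was 0.52. The authors' deposited table has log2 fold changes of 4% over 0.4% NaCl of 0.36 from DESeq, 0.16 from DESeq2 and 0.35 from edgeR, with adjusted p of 1, 0.992 and 0.959.

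**Figure D2:**
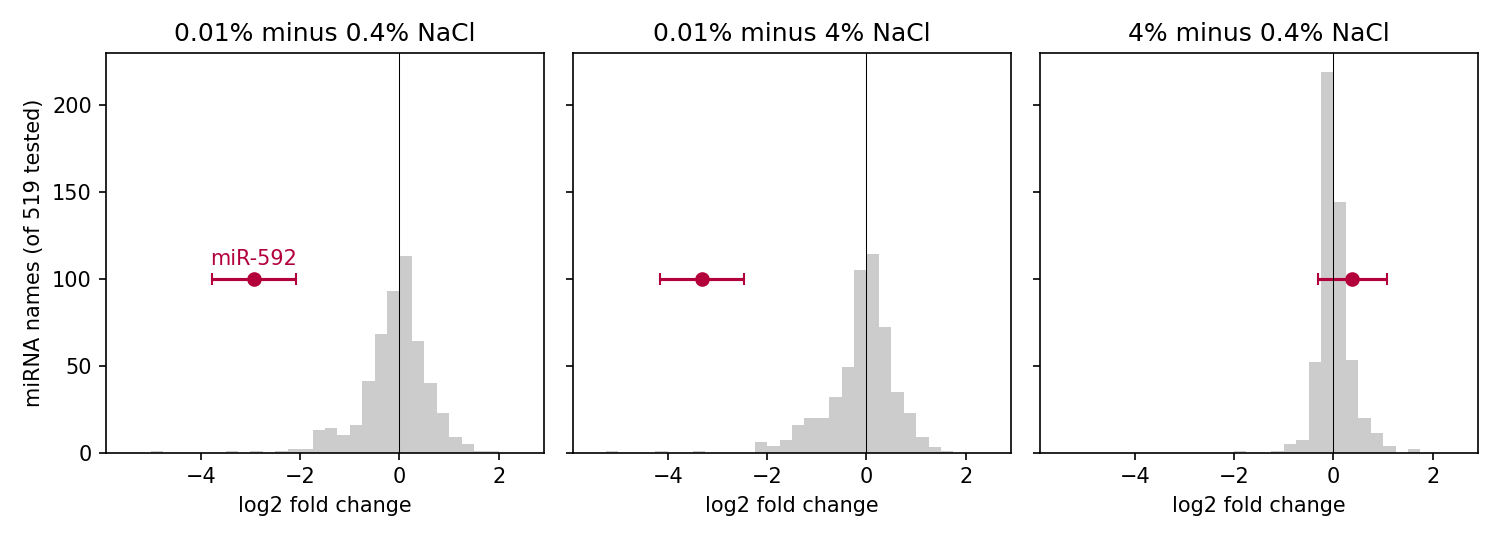
Histograms of the log2 fold changes of the 519 tested names in the 3 contrasts of diets (x axis, log2 fold change; y axis, number of names), with miR-592 as a red point with its 95% interval, drawn at an arbitrary height. miR-592 sits at -2.93 and -3.32 in the left tail of the contrasts with 0.01% NaCl and at 0.38 between 4% and 0.4% NaCl, where its interval spans 0.

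Names of like mean level over all libraries give a comparison for the standard error. The names just above and just below miR-592 in mean level over the 15 libraries, 4.97 scaled CPM and rank 392 of 600, were mmu-miR-466i-5p (5.05), miR-3120 (5.04), miR-29b-2-5p (4.87) and miR-24-1-5p (4.80). Their log2 fold changes between 0.01% and 0.4% NaCl were 0.092 ± 0.42 (SE), 0.69 ± 0.27, -0.32 ± 0.26 and 0.41 ± 0.36. None of these passed in edgeR (adjusted p = 0.891, 0.0941, 0.42 and 0.475). Against 4% NaCl the values were -0.99, 0.31, -0.37 and 0.45, and none passed there either. The standard errors of the 4 names, 0.26 to 0.42, bracket the 0.40 of miR-592. As they were matched on the mean of all diets, they do not show what 2 to 7 reads per library on 0.01% NaCl allow.

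None of the miRNAs encoded near Mir592 was called in the edgeR fit of all libraries, though 2 of them passed in other fits given below. Within 10 Mb on chromosome 4 the annotation has 10 other miRNA genes, all at higher coordinates, of which 12 mature names were counted and 10 tested. Of these 10, edgeR called 0 in each contrast, against 16.8% of all names between 0.01% and 0.4% NaCl and 20.4% between 0.01% and 4%. At an unadjusted p under 0.05 there was 1 between 0.01% and 0.4% NaCl (miR-129-5p; 31.4% of all names), 0 between 0.01% and 4% (35.6%) and 0 between 4% and 0.4%. The median log2 fold change of the 10 names was -0.38 between 0.01% and 0.4% NaCl and -0.14 between 0.01% and 4%, with values from -0.76 to 0.39 and from -0.47 to 0.55.

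The nearest, miR-129-5p, is best known from brain and can come from the Mir129-1 gene, 1.1 Mb from Mir592, or from a second gene elsewhere. The other arm from that second gene, miR-129-2-3p, was counted, while miR-129-1-3p of the nearby gene was not. Which gene the miR-129-5p reads came from was not tested. Libraries 1 to 5 had 4.40, 7.06, 7.82, 7.43 and 8.02 scaled CPM of miR-129-5p on 0.01% NaCl. On 0.4% NaCl they had 7.24, 13.1, 11.6, 9.42 and 17.6. On 4% NaCl they had 10.7, 4.74, 10.2, 9.57 and 13.2. The 0.01% libraries overlapped with those of both other diets, which those of miR-592 did not. The log2 fold change between 0.01% and 0.4% NaCl was -0.76 ± 0.28 (SE; edgeR adjusted p = 0.0683). miR-129-5p passed with DESeq2 (adjusted p = 0.0449), with library totals only (edgeR adjusted p = 0.028), with rat names only (edgeR adjusted p = 0.0429) and without library 1 of the 0.4% or library 2 of the 4% diet (edgeR adjusted p = 0.0293 and 0.0423).

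Farther on lie miR-182, miR-96-5p and miR-183-5p, a sensory-organ cluster 2.3 Mb away, with log2 fold changes between 0.01% and 0.4% NaCl of -0.53, -0.37 and -0.40. The miR-29 genes, whose miRNAs repress collagen mRNAs, lie 3.1 Mb away, with -0.050 for miR-29a-3p and 0.39 for miR-29b-3p. None of these 5 passed. miR-29b-3p can also come from another gene elsewhere, whose other arm, miR-29b-2-5p, was counted, while miR-29b-1-5p of the nearby gene was not. With library totals only, miR-29a-3p passed between 0.01% and 4% NaCl (-0.36, edgeR adjusted p = 0.0195). miR-3553 and miR-3587 lie on the opposite strand of miR-183-5p and miR-29b-3p, and levels ran in parallel within both pairs, so their reads may not be separate.

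**Figure D3:**
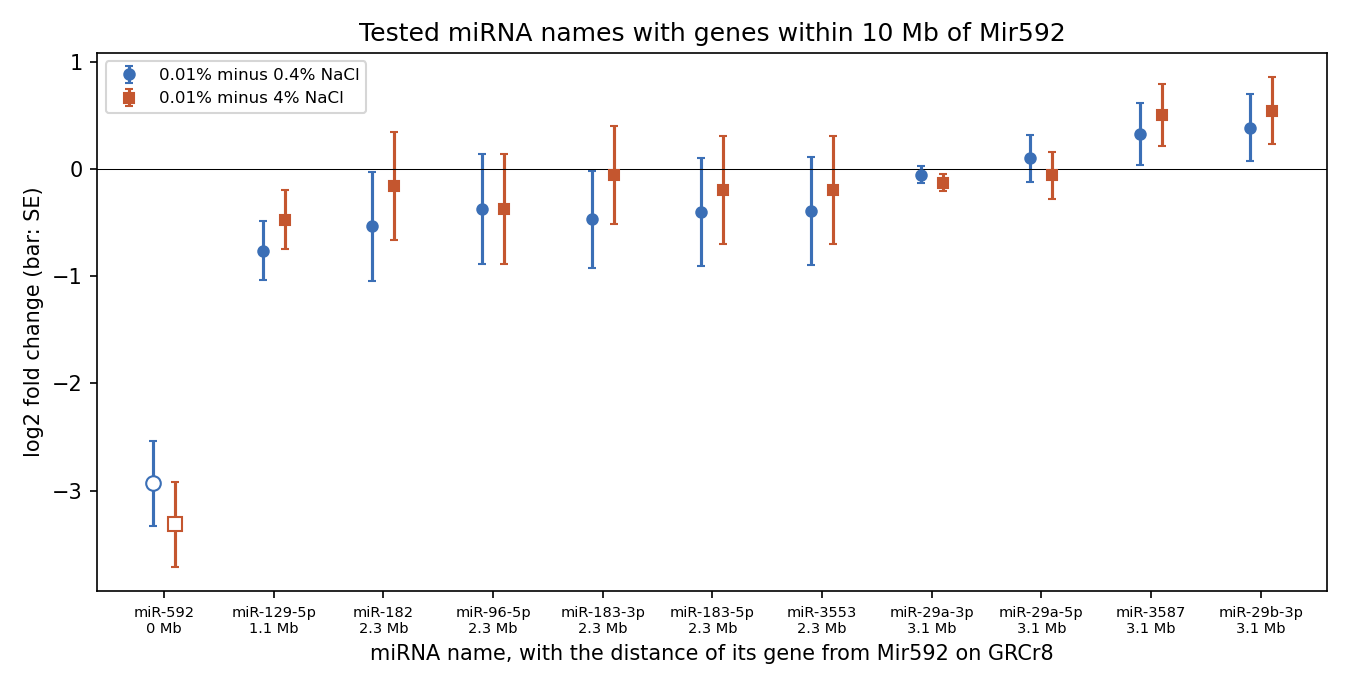
Log2 fold changes (y axis, bars are SE) of 0.01% minus 0.4% NaCl (blue circles) and 0.01% minus 4% NaCl (orange squares) for miR-592 (open symbols) and the 10 tested names with genes within 10 Mb of Mir592, ordered by distance on GRCr8 (x axis). The neighbours lie between -0.76 and 0.55, above the -2.93 and -3.32 of miR-592.

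The names whose pattern was most like that of miR-592 came from a pair of loci elsewhere in the genome. Likeness was measured as Pearson's r of log2 CPM (prior count 2) over the 15 libraries and is a description, as all points share their libraries and scaling and it includes the diet difference that picked miR-592. The 5 highest of 518 names were miR-489-3p (r = 0.92, Spearman's rho = 0.757), miR-653-5p (0.919 and 0.839), miR-381-3p (0.9 and 0.889), miR-410-3p (0.884 and 0.936) and miR-154-5p (0.882 and 0.754). The median r of all 518 names was 0.0154 and the lowest was -0.851. The genes of miR-489-3p and miR-653-5p, which lie within Calcr, the calcitonin receptor gene, in human and mouse, are on chromosome 4 as well, 24.8 Mb from Mir592. The other 3 are on chromosome 6 in the Dlk1-Dio3 cluster, a group of miRNA genes expressed from the maternal chromosome.

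None of the 5 has the seed of miR-592, as the RefSeq sequences on GRCr8 show, with seeds in capitals.
miR-489-3p: aUGACAUCacauauauggcagc
miR-653-5p: uUGAAACAuucucuacugaac
miR-381-3p: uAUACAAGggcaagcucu
miR-410-3p: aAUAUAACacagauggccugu
miR-154-5p: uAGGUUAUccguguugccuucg
All 5 were lower in every 0.01% library than in any 0.4% library, as was miR-592, with smaller fitted differences. miR-653-5p, the most abundant of them, had 72.5, 72.2, 65.6, 71.9 and 47.8 scaled CPM in libraries 1 to 5 of the 0.01% diet. It had 130.2, 137, 138, 103 and 146 on 0.4% NaCl. It had 113, 113, 134, 109 and 164 on 4% NaCl. Its mean on 0.4% NaCl, 131 ± 16.2, was about that on 4%, 126 ± 22.9 scaled CPM (SD, n = 5 each), and its 0.01% mean was 66.0 ± 10.6. The fitted log2 fold changes between 0.01% and 0.4% NaCl were -0.87 for miR-489-3p, -0.99 for miR-653-5p, -1.53 for miR-381-3p, -1.23 for miR-410-3p and -1.68 for miR-154-5p. These values enter the likeness itself and support nothing.

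Within diets the likeness was weaker and its order changed. After each diet's mean was subtracted, r was 0.461 for miR-489-3p, 0.587 for miR-653-5p, 0.714 for miR-381-3p, 0.72 for miR-410-3p and 0.375 for miR-154-5p. The 3 highest were then miR-125b-2-3p (0.779), miR-410-3p and miR-381-3p. miR-125b-2-3p had r = 0.0659 over the 15 libraries, and its means were 240 ± 5.88 scaled CPM on 0.01%, 234 ± 33.2 on 0.4% and 226 ± 40.5 on 4% NaCl. Over the 10 libraries of the 0.4% and 4% diets alone, r was 0.776 for miR-125b-2-3p, 0.658 for miR-410-3p, 0.648 for miR-489-3p, 0.589 for miR-653-5p, 0.531 for miR-381-3p and 0.296 for miR-154-5p. These names were picked by r over 15 libraries or within diets. Others had a higher r in these 10 libraries, such as miR-874-3p (0.791) and miR-10b-3p (0.78). Library 4 of the 0.4% diet, the lowest of that diet for miR-592, was also the lowest for miR-489-3p (18.1 scaled CPM), miR-653-5p (103), miR-381-3p (38.0), miR-410-3p (38.0) and miR-125b-2-3p (179), but not for miR-154-5p (1.99, against 1.81 in library 1). Library 5 of the 4% diet, the highest for miR-592, had the top level within its diet for miR-653-5p (164), miR-381-3p (67.1), miR-410-3p (86.3) and miR-154-5p (4.10), while for miR-489-3p it was library 3 (32.1). Both libraries entered the r that picked these names, so shared lowest and highest libraries are no separate evidence.

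The lowest r belonged to hsa-miR-4454 (r = -0.851), miR-652-3p (-0.838) and miR-181d-5p (-0.834). Levels of miR-652-3p were 167 ± 34.7 scaled CPM on 0.01%, 105 ± 4.40 on 0.4% and 104 ± 14.9 on 4% NaCl. Levels of miR-181d-5p were 348 ± 33.5, 216 ± 27.8 and 210 ± 34.7 on the diets in that order, so both had their highest mean where miR-592 had its lowest. That order enters the r that picked them and supports nothing. Within diets r was -0.524 for hsa-miR-4454, -0.311 for miR-652-3p and -0.102 for miR-181d-5p.

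**Figure D4:**
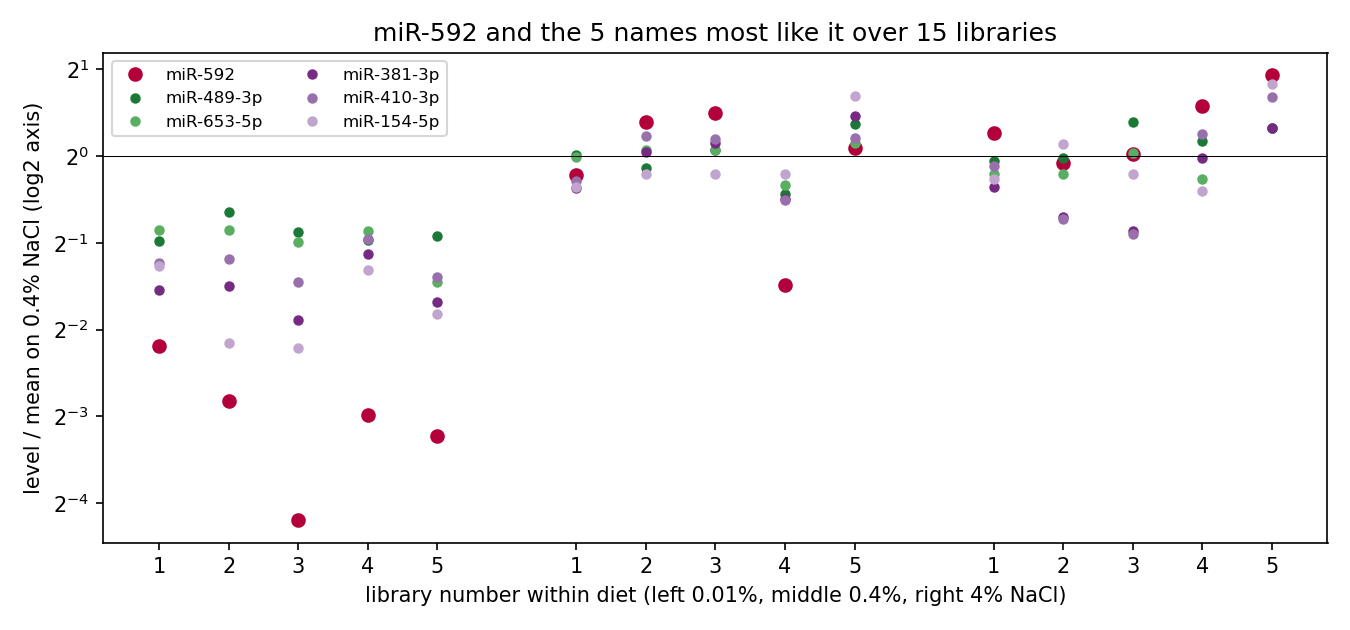
Level of miR-592 and of the 5 names most like it in each of the 15 libraries, divided by the name's own mean on 0.4% NaCl (y axis, log2 scale; x axis, library number within diet). In the 0.01% libraries all 6 names lie below 1 and miR-592 is the lowest in each, and in library 4 of the 0.4% diet miR-592 is again the lowest.

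Part of the Dlk1-Dio3 cluster stood near the top of this order. Among the 20 names most like miR-592, 13 come from the run of 38 miRNA genes around Mir154 with gaps of at most 100 kb, and 28 (5.4%) of the 519 tested names come from that run. Their r ran from 0.568 to 0.9 with a median of 0.812 over 15 libraries, against the 0.0154 of all names. The median was 0.418 within diets and 0.342 over the 10 libraries of the 0.4% and 4% diets, where that of all names was -0.022. With gaps of up to 250 kb the run took in 52 genes and 3 more tested names, miR-127-3p (r = -0.426), miR-3543 (-0.340) and miR-434-3p (-0.335), which had the opposite sign, and the median of the 31 names was 0.807. Both runs were marked off after values were seen.

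Most of the other miRNAs best known from neurons did not pass a test between diets. Of the 39 names in a list of neural miRNAs, 27 were counted and 24 tested. Between 0.01% and 0.4% NaCl 2 rose, 1 fell and 21 did not pass, so 12.5% were called against 16.8% of all names, and the median log2 fold change was 0.13 against -0.0027 for all names. miR-9a-5p (1.25 ± 0.27 SE, edgeR quasi-likelihood adjusted p = 0.00513) and miR-9b-3p (1.26, adjusted p = 0.0128) rose, and miR-149-5p, counted under names of other species, fell (-0.60, adjusted p = 0.0472). The count of 3 was 7 with DESeq2 and with library totals only, 2 with limma-voom, and 5 without library 1 of the 0.4% or library 5 of the 4% diet. The number of all names called moved as well. It was 87 in the main fit, 115 with DESeq2, 104 with library totals only, 79 with limma-voom and 107 without library 5 of the 4% diet. The other 3 of the 4 most abundant members did not pass, with -0.22 for miR-328a-3p, -0.40 for miR-218a-5p and -0.043 for miR-128-3p. Between 0.01% and 4% NaCl 3 rose, 2 fell and 19 did not pass, which is 20.8% called against 20.4% of all names (7.32% rose and 13.1% fell). miR-598-3p (0.54, adjusted p = 0.0483) was the further rise, and miR-219a-2-3p, on the few reads given above, the further fall. That count of 5 was 2 without library 1 or library 5 of the 0.01% diet, and 3 without library 2 or 3 of that diet, library 2 of the 0.4% diet or library 2 or 3 of the 4% diet. It was also 3 when, as decided once the data had been seen, the library with the largest share of foreign-species names was dropped from each diet. Of all names, 106 were called between 0.01% and 4% NaCl with every library. Without 1 library in turn that number ran from 74, without library 1 of the 0.01% diet, to 123.

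Of 20 miRNAs listed as lying within introns of protein-coding genes, as miR-592 lies within Grm8, 17 were counted and 13 tested. Their host genes are a mixed set, and not all are best known from neurons or endocrine cells. Of these 13, between 0.01% and 0.4% NaCl, 4 fell and none rose, which is 30.8% against 9.06% of all names that fell, with a median log2 fold change of -0.027. The 4 were miR-335 (-1.38, edgeR quasi-likelihood adjusted p = 0.00245), from the imprinted gene Mest, miR-653-5p (-0.99, adjusted p = 0.00143), miR-489-3p (-0.87, adjusted p = 0.00226) and miR-149-5p (-0.60). miR-489-3p and miR-653-5p share a host gene and cannot be taken as separate. The members were listed with the changes of miR-335, miR-489-3p and miR-653-5p already known, so the share is no independent evidence. Between 0.01% and 4% NaCl the same 4 fell and miR-598-3p rose, 38.5% called in all against 20.4% of all names. The values of these 4, from -1.38 to -0.60 between 0.01% and 0.4% NaCl, are smaller in size than the -2.93 of miR-592, and the difference was not tested.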

How the data were processed

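Mature miRNA reads were counted in 15 kidney cortex libraries, 5 per diet. The authors deposited raw read counts for 600 names, 445 of them rat names and 155 names of other species. Cutadapt, Bowtie and DESeq are named in the submitters' processing notes. The sources used here do not give their versions, the build, the miRNA database or the handling of reads with several matches. Tables of the authors' comparisons were deposited too, holding p-values and log2 fold changes per the file headers, and 90 columns of per-sample values in them were not used. The kit, TruSeq small RNA per the labels' protocols, adds no molecular identifiers, so intervals cover counting error only.

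Samples were grouped by the diet label. Libraries of 1 diet differed from each other by far more than counting error, so each was counted singly. Counts were fitted with edgeR 4.0.16 (R 4.3.3): filterByExpr (519 names kept, 81 left out), TMM factors (0.781 to 1.15), robust dispersions and 1 quasi-likelihood fit of 3 diet means with 12 residual degrees of freedom. A name was called at an adjusted p (Benjamini-Hochberg) under 0.05. Standard errors are the absolute log2 fold change over the square root of F. Alternatives used DESeq2 1.42.0 and limma-voom (limma 3.58.1). The fit was tested on simulated data.

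miR-592, the lists and the naming rule were chosen with earlier results of these data known. The rule named miR-592, names sharing its seed, the closest rat sequence, miRNA genes within 10 Mb, the 2 names above and below it in abundance, the 5 highest and 3 lowest r, the 3 highest r within diets, and called or abundant neural miRNAs. The intronic list, read by counts, and the run of genes around Mir154 are additions to what that rule names.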

Additional observations from a re-analysis of the deposited data

Results flagged for a closer look

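Single libraries stood apart within a diet in 8 of 66 groups of 5 libraries. Chance gives about 1 in 20 for independent groups of normally distributed values. The groups here share libraries and some names share a locus, so 8 of 66 cannot be set against that rate. A library stood apart where its gap to the nearest of the others, over the range of the 5, was above 0.71. No diet of miR-592 itself was among them. On 0.01% NaCl, library 2 had 15.7 scaled CPM of miR-489-3p against 12.4 to 13.3 in the others (gap over range 0.729), and library 5 had 47.8 of miR-653-5p against 65.6 to 72.5 (0.719). On 0.4% NaCl, library 5 had 3.74 of miR-154-5p against 1.81 to 2.01 (0.898). Among the neighbours of Mir592 on 0.01% NaCl, library 1 had 4.40 of miR-129-5p against 7.06 to 8.02 (0.736). Library 5 of that diet had 26.3 of miR-29a-5p against 11.7 to 14.3 (0.82), 413 of miR-29b-3p against 115 to 178 (0.788) and 420.1 of miR-3587 against 128 to 182 (0.815). On 4% NaCl, library 3 had 21.7 of miR-29a-5p against 14.5 to 16.1 (0.773).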

How the results depend on the processing

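The log2 fold change of miR-592 stayed between -3.09 and -2.81 for 0.01% against 0.4% NaCl, between -3.55 and -3.27 against 4%, and between 0.36 and 0.51 for 4% against 0.4% (adjusted p 0.898 to 0.999) under 11 alternatives each, of other scalings, filters, tools and library sets. Without 1 library in turn the ranges were -3.20 to -2.75, -3.59 to -3.13, and 0.18 to 0.52 (adjusted p 0.838 to 1.0). Means by diet ran from 0.654 to 0.904, 5.55 to 7.05 and 7.03 to 8.51 scaled CPM without 1 library. With the 5 most abundant names left out of the library sizes they were 1.71, 12.9 and 16.9, as fewer reads make up the total. Library totals only moved the median of all names by -0.189 between 0.01% and 0.4% NaCl, and miR-592 to -3.09. A filter at a mean of 10 CPM removes miR-592 (4.97) and called 55 names instead of 87 between 0.01% and 0.4% NaCl, with fewer names tested. The lowest r of the 5 names most like miR-592, 0.882, was 0.375 within diets and 0.851 to 0.888 without 1 library; the 5 names were the same with a prior count of 0.5, and 2 of them were among the top 5 by Spearman's rho. No paired analysis was possible because the labels number no replicates. Few reads, 2 to 7 per library on 0.01% NaCl, limit the precision of the fold changes.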
